A study of Saccharomyces cerevisiae with 35 samples.

Results

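The 56 genes described here encode the proteins of the small (40S) subunit of the cytoplasmic ribosome in budding yeast, Saccharomyces cerevisiae. They were taken by name, as every measured gene whose R64 symbol is RPS followed by a digit, and they make up 56 of 5843 measured features. Together they encode 32 proteins: 48 of the genes form 24 pairs of duplicated copies, named A and B, and 8 proteins have 1 gene each. An intron interrupts 36 of the genes, and the genes lie on 14 chromosomes.

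Ribosomal protein genes are among the most strongly transcribed genes of a growing yeast cell, and their transcription depends on the kinase complex TORC1. The factor Rap1 binds their promoters together with Fhl1, whose coactivator Ifh1 leaves when TORC1 is inhibited. Rapamycin inhibits TORC1 only after binding Fpr1, a small prolyl isomerase, so cells without FPR1 are known to resist the drug.

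In the single-cell experiment a pool of fpr1 deletion strains and wild-type strains of the FY4/5 background grew in 1 flask of rich medium (YPD) at 30 °C and was drawn off continuously. Each of 2 cultures gave 2 untreated collections (-20 to -10 and -10 to 0 min) and 6 after 200 ng/mL rapamycin (0 to 10 through 50 to 60 min), so deletion and wild-type cells shared each flask. Separate wild-type cultures, 3 in number, were sampled in bulk at 0 min, before the drug, and at 10 times between 2.5 and 120 min after it. Both assays read the 3' ends of polyadenylated RNA. The authors assigned a genotype and a strain code to each cell. The labels do not tell how the 6 deletion codes and 72 wild-type codes relate to independent clones, and doublets were not called.

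The copies of a pair resemble each other, which limits how surely a read can be given to one of them. Coding sequences of the 24 pairs were 84.3 to 99.2% identical, and 9 pairs encode identical proteins, whereas the 200 bases after the stop codon were 43.9 to 51.3% identical. The last 80 coding bases of the pairs on which the results turn are shown 5′ to 3′ on the coding strand, from RefSeq R64 (sacCer3), with the bases that differ between the copies in capitals. RPS22A lies at chrX:74910-74989 (minus strand) and RPS22B at chrXII:857238-857317 (plus). RPS25A lies at chrVII:534132-534211 (minus) and RPS25B at chrXII:795573-795652 (minus). RPS21A lies at chrXI:552163-552242 (plus) and RPS21B at chrX:156550-156629 (minus). RPS14A lies at chrIII:177500-177579 (minus) and RPS14B at chrX:74532-74611 (plus). RPS26A lies at chrVII:148229-148308 (minus) and RPS26B at chrV:424232-424311 (plus). RPS16A lies at chrXIII:552824-552903 (plus) and RPS16B at chrIV:306926-307005 (minus). All of these stretches are exonic and end with the stop codon.
RPS22A: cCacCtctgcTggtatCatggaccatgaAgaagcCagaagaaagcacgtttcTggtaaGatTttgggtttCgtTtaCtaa
RPS22B: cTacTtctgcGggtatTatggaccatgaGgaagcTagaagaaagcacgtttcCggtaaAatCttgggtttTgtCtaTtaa
RPS25A: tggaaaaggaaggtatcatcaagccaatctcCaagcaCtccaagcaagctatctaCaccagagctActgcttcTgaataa
RPS25B: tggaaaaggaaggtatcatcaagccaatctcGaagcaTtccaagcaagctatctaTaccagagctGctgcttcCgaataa
RPS21A: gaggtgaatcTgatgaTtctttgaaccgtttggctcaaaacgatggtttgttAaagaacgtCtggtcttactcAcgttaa
RPS21B: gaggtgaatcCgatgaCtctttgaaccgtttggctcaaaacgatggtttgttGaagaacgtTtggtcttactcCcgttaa
RPS14A: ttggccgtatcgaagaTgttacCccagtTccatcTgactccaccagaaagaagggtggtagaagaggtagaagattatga
RPS14B: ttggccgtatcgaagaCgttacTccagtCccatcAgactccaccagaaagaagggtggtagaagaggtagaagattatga
RPS26A: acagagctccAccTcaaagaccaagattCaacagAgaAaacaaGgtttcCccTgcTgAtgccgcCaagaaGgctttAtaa
RPS26B: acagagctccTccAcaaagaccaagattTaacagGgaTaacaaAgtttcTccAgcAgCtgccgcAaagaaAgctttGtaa
RPS16A: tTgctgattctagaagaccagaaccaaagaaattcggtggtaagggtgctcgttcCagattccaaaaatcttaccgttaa
RPS16B: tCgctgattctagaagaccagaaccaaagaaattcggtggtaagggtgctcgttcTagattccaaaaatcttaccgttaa
Within these 80 bases the copies differed at 12 positions for RPS22, 5 for RPS25, 5 for RPS21, 4 for RPS14, 13 for RPS26 and only 2 for RPS16, so reads from this stretch tell the RPS16 copies apart at 2 positions. For 4 pairs, RPS4, RPS6 and RPS24 among them, more than 50% of the 31-base words of the A copy also occur in the B copy, and their split into copies is the least certain. RPS14B and RPS22A are neighbours that face each other on chromosome X, with 298 bases between their coding ends and no annotated gene between them.

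Unique molecular identifiers (UMIs) of 173347 cells were summed by library and genotype, giving 1501368 to 5191196 UMIs per deletion sum and 3993298 to 69114350 per wild-type sum. FPR1 stood at 1.03 to 7.91% of its wild-type level in the deletion sums, with 1.25 to 2.87% before rapamycin and up to 7.91% from 20 min on. Of the cells, 7344 carried a barcode also present in another library. Before rapamycin, deletion cells of culture 2 stood apart: 17.7% of 787 cells at -20 to -10 min (exact 95% interval 15.1 to 20.5%) and 24.5% of 580 cells at -10 to 0 min (21.0 to 28.2%) had under 12% of their UMIs in RPS genes. That share of cells was 2.60 and 3.04% in deletion cells of culture 1 and 3.00 to 4.76% in the 4 wild-type sums. It was 16.5 and 22.7% in the deletion cells of culture 2, 4.37 and 5.13% in those of culture 1, and 2.81 to 5.57% in wild-type sums after thinning cells to 1000 UMIs. The 12% limit was chosen after the data were seen, and intervals cover counting error only.

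Deletion cells gave 15.6, 15.9, 15.2 and 15.5% of their UMIs to the 56 genes before rapamycin, and wild-type cells gave 15.6, 17.0, 15.3 and 16.8%. By 50 to 60 min the share was 12.4 and 11.5% in deletion cells of cultures 1 and 2, against 1.24 and 1.49% in wild-type cells. A median deletion cell then held 770 and 359 RPS UMIs and a median wild-type cell 19 and 39. Before the drug the medians were 366 to 575 UMIs in deletion cells and 509 to 912 in wild-type cells. Both wild-type cultures therefore ended far below all deletion sums, and the share of a sum is a description with no test.

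**Figure D1:**
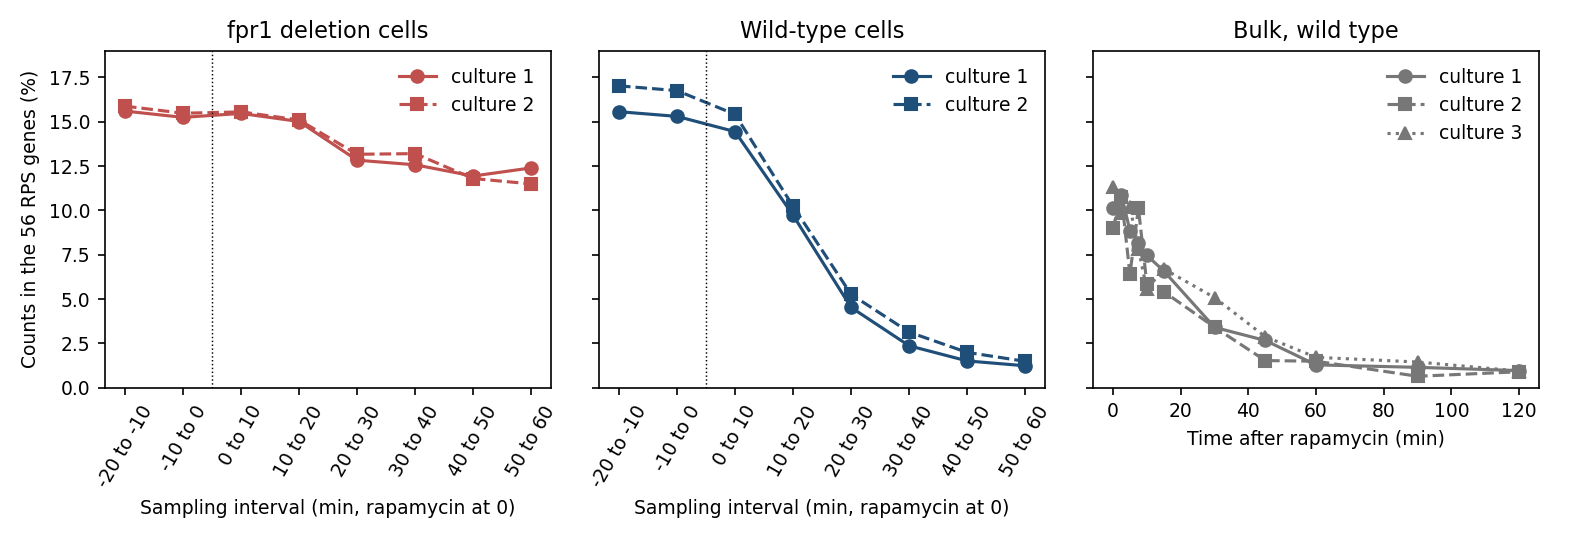
Share of counts in the 56 RPS genes (%) per sampling interval in fpr1 deletion cells (left) and wild-type cells (middle), and by time in bulk wild-type cultures (right); each point is 1 library, lines join 1 culture, and the dotted line marks rapamycin. The deletion cells end at 12.4 and 11.5%, the wild-type cells at 1.24 and 1.49% and the bulk cultures at 0.899 to 0.964%.

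Before any drug, 5 of the 56 genes were lower in deletion cells than in wild-type cells, and 0 were higher. They were RPS22B, RPS25A, RPS21A, RPS14B and RPS16A. Over all 5549 genes tested 0.469% were lower and 0.0721% higher by the same rule, edgeR's quasi-likelihood test with a Benjamini-Hochberg (BH) adjusted p under 0.05. The median log2 difference was -0.14 over the 56 genes and -0.03 over all genes. The first 4 were singled out for description with this difference already known.

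In the single-cell counts RPS22B is the minor copy of the gene pair for Rps22, a protein of the body of the 40S subunit. In deletion cells it stood at 272 and 241 CPM (counts scaled to a common library size with TMM factors) in culture 1 and at 305 and 297 in culture 2. In wild-type cells it stood at 683 and 674 CPM in culture 1 and at 708 and 711 in culture 2. The groups were well apart, by 2.49-fold (log2 -1.31, SE 0.11, edgeR quasi-likelihood, BH-adjusted p = 1.69e-07). The other copy, RPS22A, had 5039 to 5671 CPM in deletion cells and 5742 to 6485 in wild-type cells, a log2 difference of -0.23 that was not called.

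RPS25A encodes Rps25, a protein of the 40S head that is needed for translation from several viral internal ribosome entry sites. Its level was 1905, 2382, 2011 and 2323 CPM in the 4 deletion sums (cultures 1 and 2 of the first interval, then of the second) and 4366, 5808, 4585 and 5672 in the 4 wild-type sums. No deletion value came near a wild-type one, and the difference was 2.37-fold (log2 -1.24, SE 0.13, edgeR quasi-likelihood, BH-adjusted p = 2.46e-06). RPS25B had 2148 to 2527 CPM in deletion cells and 2552 to 2731 in wild-type cells (log2 -0.20, not called).

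For RPS21A, one of the genes for Rps21, which is needed for maturation of the 3' end of the small-subunit RNA, the deletion sums held 1786, 1573, 1767 and 1554 CPM and the wild-type sums 3331, 3575, 3350 and 3333. This was a 2.03-fold difference (log2 -1.02, SE 0.16, edgeR quasi-likelihood, BH-adjusted p = 0.0014). RPS21B overlapped between the genotypes, at 1906 to 2327 CPM in deletion cells and 1902 to 2608 in wild-type cells.

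RPS14B encodes Rps14, a platform protein known to bind the RPS14B pre-mRNA and repress its own expression. Deletion sums held 668, 573, 601 and 607 CPM and wild-type sums 1115, 1228, 1025 and 1275, a 1.90-fold difference (log2 -0.92, SE 0.09, edgeR quasi-likelihood, BH-adjusted p = 2.46e-06). RPS14A had 2907 to 3398 CPM in deletion cells and 3213 to 3696 in wild-type cells and was not called. The fifth gene, RPS16A, differed less: 2757 to 2982 CPM in deletion cells against 3439 to 4059 in wild-type cells (log2 -0.43, SE 0.09, edgeR quasi-likelihood, BH-adjusted p = 0.024). RPS16A lost its call under 9 of 27 alternatives, RPS21A under 3 and RPS14B under 1, whereas RPS22B and RPS25A kept theirs under all 27.

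Strain codes, which split the same untreated cells and are not further replicates, showed the same order in both cultures. As CPM of total UMIs, RPS22B was 180 to 249 in the 6 deletion codes of culture 1 and 253 to 296 in those of culture 2. The 72 wild-type codes had 470 to 626 in culture 1 and 446 to 608 in culture 2. RPS25A had 1553 to 1703 and 2089 to 2186 in deletion codes, against 3191 to 3680 and 4057 to 4687 in wild-type codes. RPS21A had 1381 to 1530 and 1350 to 1503 in deletion codes, against 2058 to 2779 and 2161 to 2866 in wild-type codes. None of these 3 genes overlapped between genotypes within a culture. RPS14B did so in culture 1, with 496 to 560 in deletion codes and 537 to 930 in wild-type codes, and not in culture 2, with 497 to 592 against 619 to 1068. A few wild-type codes lay apart from the rest. In both cultures 5 codes were below 80% of the wild-type median for RPS14B, 7 for RPS22A and 4 for RPS21B. The same 4 codes were low for all of these genes, which lie on chromosome X, and the reason was not tested. For RPS22B, RPS25A or RPS21A 0 codes were low in both cultures. The 80% limit was chosen after the data were seen. In culture 2 the low-share cells were found in all 6 deletion codes, at 14.1 to 30.3% of their untreated cells. Without the cells under 12%, RPS22B was at 215 and 264 CPM of total UMIs in deletion cells of cultures 1 and 2 and 544 and 565 in wild-type cells, and RPS25A was 1656 and 2176 in deletion cells against 3589 and 4574 in wild-type cells. RPS21A was then 1494 and 1474 in deletion cells against 2682 and 2768 in wild-type cells, and RPS14B 532 and 539 against 859 and 997.

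**Figure D2:**
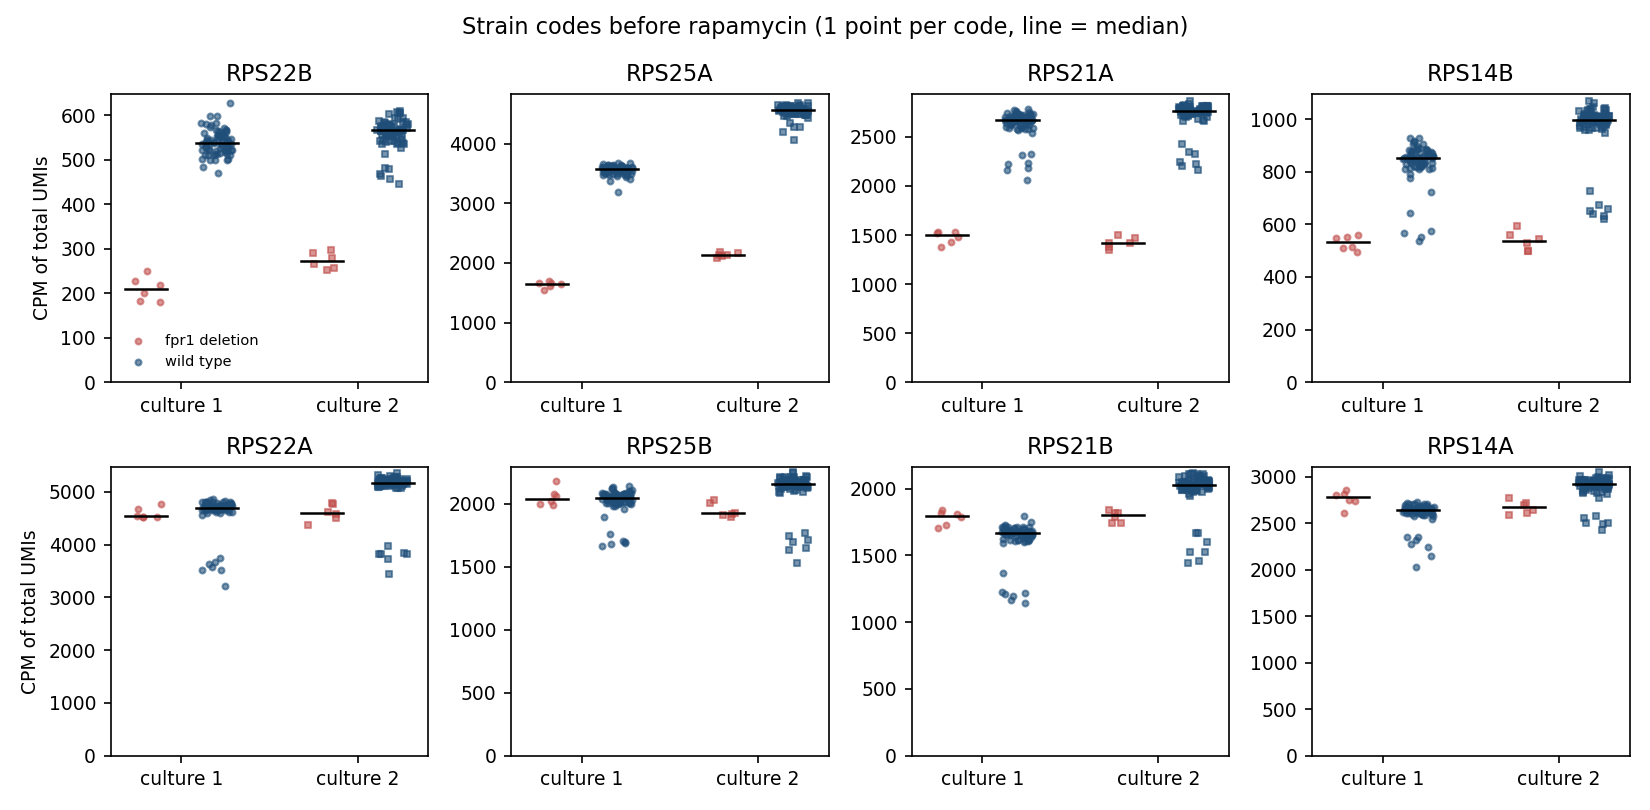
CPM of total UMIs before rapamycin in each strain code (1 point per code; line, median) for RPS22B, RPS25A, RPS21A and RPS14B (top) and their other copies (bottom); within each culture fpr1 deletion codes are left of wild-type codes. RPS22B spans 180 to 249 in deletion codes and 470 to 626 in wild-type codes of culture 1, while the other copies overlap between the genotypes in both cultures.

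Because the ratio of the copies within a sum does not depend on scaling, it was tested on its own for all 61 A/B pairs in the table with limma. The ratio differed before rapamycin in 5 of 24 RPS pairs, and in 8 of all 61 pairs (13.1%), the RPS pairs included. The A copy was favoured in deletion cells for RPS22 (log2 1.09) and RPS14 (0.76). It was disfavoured for RPS25 (-1.04), RPS21 (-0.86) and RPS16 (-0.30). RPS22A made up 94.4 to 95.7% of RPS22 UMIs in deletion cells and 89.5 to 90.2% in wild-type cells. RPS25A made up 43.0 to 52.5% of RPS25 UMIs in deletion cells and 62.8 to 68.3% in wild-type cells.

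After rapamycin all 56 genes fell in wild-type cells, but did not pass the test at the same time. In the first 10 min 2 genes were called, RPS9A (-0.62) and RPS27A (-0.43), and 9.5% of all genes were lower by the same rule. The count was 0 by library totals, 0 with sums scaled by cells and 0 with the last untreated interval alone, 7 by DESeq2 and 9 in a fit that blocked on culture. It was also 0 without a culture 2 library of either untreated interval or the culture 1 library of 0 to 10 min, and 6 without either 50 to 60 min library. At 10 to 20 min 53 were lower with a median log2 change of -1.10 (all genes lower, 28.5%). RPS20 (-0.53), RPS29A (-1.28) and RPS30B (-0.99) also fell but were not called. Scaling by cells gave 25 calls. At 20 to 30 min 55 were lower with a median of -2.50 (32.4% of all genes), with RPS30B not called (-1.29). From 30 min on all 56 were lower, with medians of -3.39, -4.18 and -4.62 in the last 3 intervals, against 34, 35.1 and 36% of all genes. The level was at or below a log2 change of -1 for 43 genes at 10 to 20 min and for all 56 at 20 to 30 min.

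RPS26B, one copy of the gene for Rps26, which lines the channel where mRNA leaves the subunit, fell most. Wild-type sums held 28.6 and 22.01 CPM at 50 to 60 min, against 3834 and 3800 in culture 1 and 4099 and 4010 in culture 2 before the drug. The change was -7.31 on the log2 scale with an SE of 0.18 (BH-adjusted p = 7.83e-19 by edgeR's quasi-likelihood test). Those last levels rest on 143 and 1558 UMIs in cultures 1 and 2. Next came RPS3, whose protein lies at the mRNA entry channel, at 47.2 and 44.3 CPM against 5070 to 5685 CPM (log2 -6.90).

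The smallest changes at 50 to 60 min were in RPS30A, RPS20 and RPS28A. RPS30A had 622 and 686 CPM, against 3324 to 3559 before rapamycin (log2 -2.41, SE 0.16, edgeR quasi-likelihood, BH-adjusted p = 5.70e-12). RPS20, a single-copy gene for a protein of the 40S head, had 131 and 113 CPM (log2 -2.42, SE 0.52). Before the drug RPS20 had 423 and then 896 CPM in the untreated intervals of culture 1, and 681 and then 636 in those of culture 2. RPS28A had 393 and 308 CPM against 2488 to 3271 (log2 -3.03). Even these least changed genes were far below their untreated values in both cultures.

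RPS9A, the minor copy for Rps9, a protein near the decoding site, was one of the 2 genes called in the first interval. It had 288 and 282 CPM at 0 to 10 min and 50.1 and 64.8 at 10 to 20 min, against 411 to 460 CPM before the drug. The log2 change at 10 to 20 min, -2.93 (SE 0.24, edgeR quasi-likelihood, BH-adjusted p = 4.11e-10), was the most negative of the 56. RPS9A was chosen for description after its values were seen. Among further single-copy genes the change at 50 to 60 min was -4.76 for RPS15, -4.74 for RPS2, -4.63 for RPS31 (a fusion of ubiquitin with a 40S protein), -4.46 for RPS13 and -3.66 for RPS12. The median was -4.69 over the 8 single-copy genes and -4.56 over the 48 duplicated ones, and -4.64 over 36 genes with introns and -4.37 over 20 without. Across the 56 genes, log2 changes at 10 to 20 min and at 50 to 60 min, which share their untreated sums, had a Pearson r of 0.35 and a Spearman rho of 0.40. Longer coding sequences went with larger falls at 50 to 60 min (r -0.46, rho -0.49). Both are descriptions across genes.

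In deletion cells no gene was called in the first 2 intervals, and smaller decreases were called later. At 0 to 10 and at 10 to 20 min 0 of 56 genes were called by edgeR, 0 had an unadjusted p under 0.05, and 0% of all genes were lower. At 20 to 30 min 18 genes were lower (all genes, 1.93%) and at 30 to 40 min 23 (2.67%). At 40 to 50 min 38 were lower (6.67%), and at 50 to 60 min 39 (6.42%). Medians in these 4 intervals were -0.39, -0.41, -0.55 and -0.54, and the 39 genes of the last one changed by -0.86 to -0.45. RPS3 had 2890 and 2280 CPM at 50 to 60 min, against 4075 to 4559 before the drug, and RPS26B 2176 and 1917 against 3137 to 3762. RPS20 (0.84), RPS30B (0.41) and RPS29A (0.39) had positive values and were not called.

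The size of this decrease depended on how the sums were scaled. A median deletion cell held 6234 UMIs at 50 to 60 min in culture 1, against 2334 and 3164.5 before the drug, and 3246 in culture 2, against 3795 and 3850. With sums scaled by the number of cells the median change at 50 to 60 min was 0.12 over the 56 genes and 0.69 over all genes, and the 1 called gene, RPS20, was higher (1.58). Scaled by library totals, the medians were -0.38 and 0.22 and 10 genes were called. Removal of an estimated wild-type share of the RNA gave 2 calls at 20 to 30 min and 2 at 30 to 40 min. A fit that blocked on culture called 31 at 20 to 30 min. Without the 20 to 30 min library of either culture 0 genes were called there. At 30 to 40 min leaving out the culture 1 library gave 0 calls and leaving out the culture 2 library 4. Without the culture 2 library 18 were called at 40 to 50 min and 5 at 50 to 60 min. FPR1 in the deletion sums was at 1.40 to 7.91% of wild type in these 4 intervals, and what part its source had in the decrease was not tested beyond the removal.

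**Figure D3:**
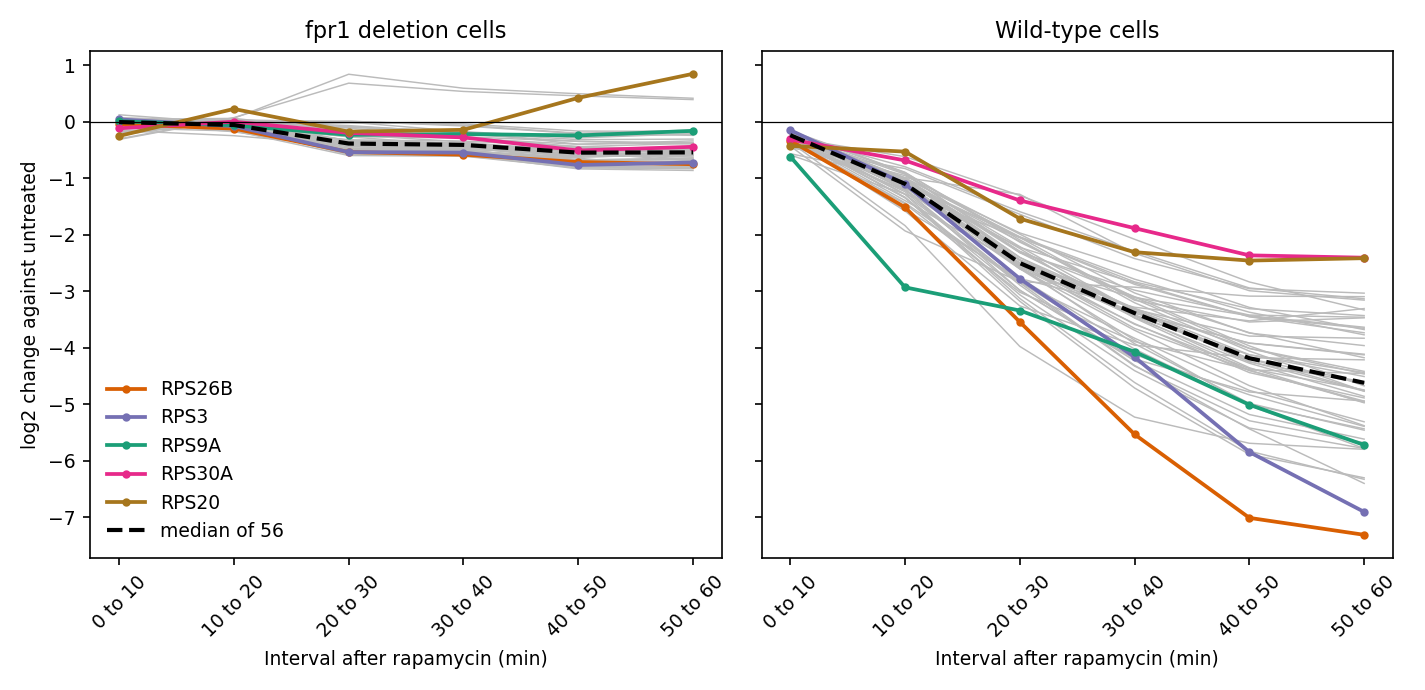
log2 change against the untreated intervals for each of the 56 RPS genes (grey lines), with 5 genes coloured and the median dashed, in fpr1 deletion cells (left) and wild-type cells (right). The medians at 50 to 60 min are -0.54 in deletion cells and -4.62 in wild-type cells, with RPS26B at -7.31 and RPS30A at -2.41 in wild type.

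The responses differed between the genotypes when their difference was tested directly. The change in deletion cells was the less negative one, by the same edgeR test, in 0 of 56 genes at 0 to 10 min (2.49% of all genes; 1 with the culture as a block) and in 50 at 10 to 20 min (20.4%). Library totals gave 29 and scaling by cells 9 at 10 to 20 min. It was so in 53 genes at 20 to 30 min (24.6%) and in all 56 in the last 3 intervals (27.5, 29.2 and 30.8%). At 50 to 60 min the difference ran between 1.96 for RPS30A and 6.55 for RPS26B on the log2 scale, with a median of 4.16. For RPS3 it was 6.18 with an SE of 0.22 (BH-adjusted p = 4.46e-16 by edgeR's quasi-likelihood test). RPS22B and RPS25A, lower in deletion cells before the drug, ended above wild type there. RPS22B had 198 and 163 CPM in deletion cells at 50 to 60 min and 52.8 and 55.5 in wild-type cells. RPS25A then had 1916 and 1422 CPM in deletion cells and 593 and 571 in wild-type cells.

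The copies of a protein did not fall alike in wild-type cells. The A to B ratio had changed in 0 of 24 pairs at 0 to 10 min (1.64% of all 61 pairs), 10 at 10 to 20 min (44.3%; 16 with the culture as a block), 18 at 20 to 30 min (70.5%) and 20 at 50 to 60 min (77%). The share of RPS pairs was near that of all pairs, which include the RPS pairs. Of the 20 pairs, 13 moved toward the A copy and 7 toward the B copy. In deletion cells the ratio changed at 50 to 60 min in 3 pairs, RPS0, RPS21 and RPS26 (9.84% of all pairs).

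RPS26 moved most. RPS26A made up 74.3 and 70.9% of RPS26 UMIs in deletion cells at 50 to 60 min and 95.3 and 96.5% in wild-type cells, against 56.3 to 63.8% in wild-type cells before the drug (wild-type log2 ratio change 3.97, SE 0.19, limma, BH-adjusted p = 3.04e-13). RPS16 moved the same way: RPS16A made up 41.3 and 43.9% in deletion cells at 50 to 60 min and 81.7 and 83.8% in wild-type cells, against 45.3 to 46.1% in untreated wild type (2.52). RPS22 moved toward RPS22B, its minor copy in the single-cell counts. RPS22A made up 94.6 and 94.1% in deletion cells and 63.4 and 53.7% in wild-type cells at 50 to 60 min (-2.65). Untreated deletion cells had 60.5 to 67.2% RPS26A, 40.0 to 40.9% RPS16A and 94.4 to 95.7% RPS22A, so among these 3 pairs only RPS26 was also called in deletion cells (0.61, limma, BH-adjusted p = 0.0464).

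The direction turned over time in 2 pairs. RPS27A made up 27.9 to 32.4% of RPS27 UMIs in untreated wild-type cells, 18.5 and 19.3% at 10 to 20 min, and 59.8 and 61.1% at 50 to 60 min. Its log2 ratio changed by -0.87 at 10 to 20 min (limma, BH-adjusted p = 0.000907) and by 1.84 at 50 to 60 min. RPS7A, whose protein is a known target of the ubiquitin ligase Not4, made up 56.2 to 59.3% in untreated wild type, 65.6 and 66.9% at 10 to 20 min and 31.6 and 31.7% at 50 to 60 min. Its ratio changed by 0.52 and later by -1.57. RPS9 (-1.59) and RPS14 (0.48) were called at 10 to 20 min and not at 50 to 60 min, when the RPS14 change was -0.13. RPS9A made up 5.66 to 6.16% of RPS9 UMIs before the drug, 1.75 and 2.41% at 10 to 20 min and 4.16 and 7.84% at 50 to 60 min, with a last change of -0.04 (limma, BH-adjusted p = 0.916). The ratios of RPS26, RPS16, RPS22, RPS27 and RPS7 responded differently in the genotypes at 50 to 60 min, by -3.36, -2.40, 2.46, -1.96 and 1.498 in deletion minus wild type, all called by limma (68.9% of all pairs were).

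**Figure D4:**
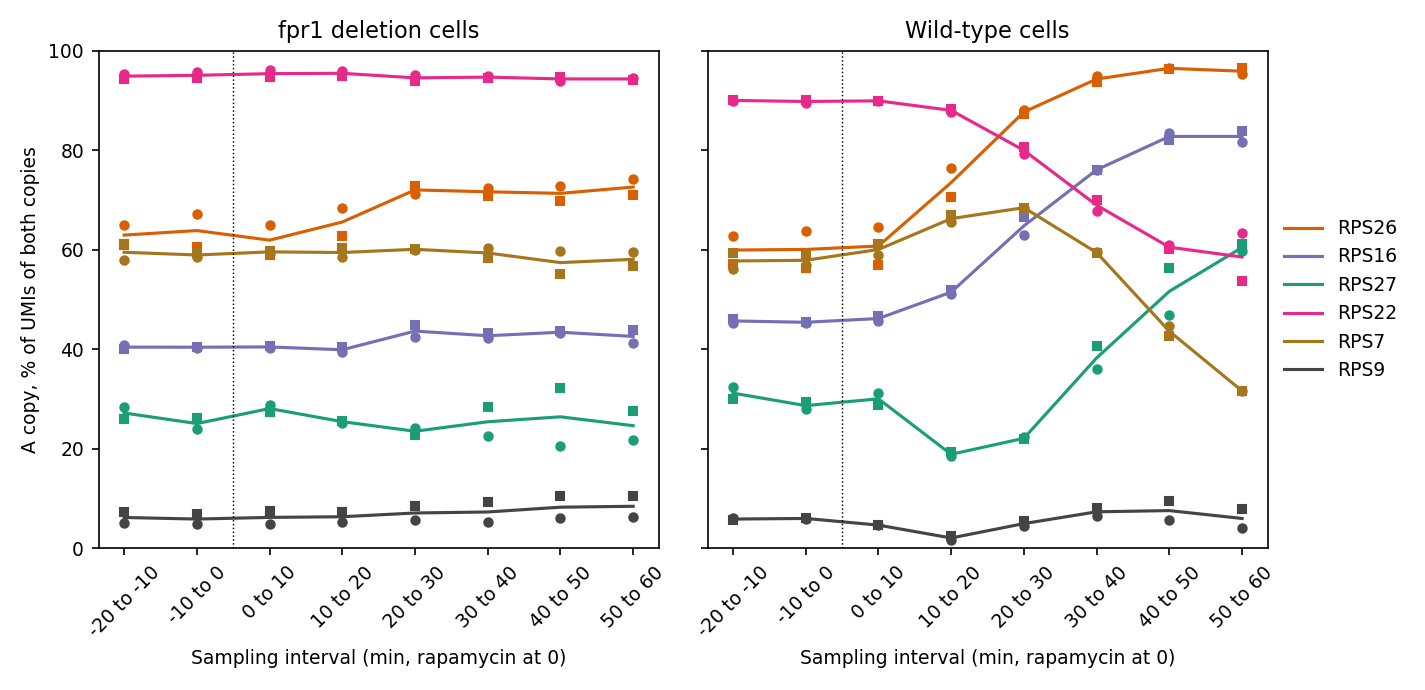
Share of the A copy in the UMIs of a pair (%) per sampling interval for RPS26, RPS16, RPS27, RPS22, RPS7 and RPS9, in fpr1 deletion cells (left) and wild-type cells (right); points are cultures and lines join their means. In wild type RPS26A reaches 95.3 and 96.5% and RPS7A ends at 31.6 and 31.7%, where deletion cells have 74.3 and 70.9% RPS26A and 59.5 and 56.7% RPS7A in deletion cells.

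In the bulk wild-type cultures the same genes fell, and there fewer cells of a type and less RNA per cell cannot be told apart. These libraries were shallow, with 3800 to 111293 counts, so 53 of the 56 genes could be tested among 910 genes (RPS10B, RPS14B and RPS20 could not). By edgeR 0 were lower at 2.5 min (0% of all genes), 1 at 5 min (0.33%), 1 at 7.5 min (0.33%), 10 at 10 min (3.96%) and 20 at 15 min (8.9%). At 30 min 43 were lower (18.6%), at 45 min 51 (22.2%), at 60 min 50 (24.3%), and at 90 and 120 min all 53 (23.8 and 25.7%). Leaving out 1 bulk culture at a time gave 1 to 7 calls at 10 min and 3 to 4 at 15 min. The median log2 change was -0.77 at 10 min, -1.70 at 30 min, -2.81 at 60 min and -3.45 at 120 min.

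RPS22B was the gene called at 5 and at 7.5 min. It had 14379, 4617 and 11454 CPM at 0 min in cultures 1, 2 and 3, 3512, 1899 and 3338 at 5 min, and 2430, 4738 and 2119 at 7.5 min. Cultures 1 and 3 were lower at both times, and culture 2 was lower at 5 min but not at 7.5 min. Without culture 1 no RPS gene was called at either time, and without culture 3 none at 7.5 min. Without a filter on low counts 0 were called at both, and without libraries under 10000 counts 0 at 5 min. At 120 min it had 290, 172 and 327 CPM, a change of -5.17. At 5 min the change was -1.77 with an SE of 0.40 (BH-adjusted p = 0.00762 by edgeR's quasi-likelihood test). The share of the copies was unlike that in single cells. RPS22A made up 1.57, 10 and 3.90% of RPS22 counts in the bulk cultures at 0 min, on 27 RPS22A and 475 RPS22B counts in all, against 89.5 to 90.2% in untreated wild-type single cells. The small nucleolar RNA gene SNR44 lies inside the intron of RPS22B (chrXII:856710-856920, plus strand), and its part in the bulk counts was not tested. In 14 of 24 pairs the 3 bulk shares of the A copy at 0 min lay outside the range of the untreated wild-type sums. That count makes no allowance for counting error, and some bulk shares rest on few counts. The A and B copies had 13 and 51 counts in all for RPS24 and 86 and 8 for RPS14.

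RPS29A, a gene for a zinc-binding protein of the 40S head, had the most negative value at 120 min. RPS29A had 1610.5, 2716 and 3314 CPM at 0 min and 54.4, 0 and 13.6 at 120 min (log2 -6.25, SE 0.66, edgeR quasi-likelihood, BH-adjusted p = 1.76e-11). Those last levels rest on 6, 0 and 1 counts. In wild-type single cells RPS29A changed by -3.47 at 50 to 60 min, less than the median of -4.62 over the 56 genes. RPS12 had 2646, 3168 and 4826 CPM at 0 min, 1796, 2875 and 2391 at 60 min, which was not called (-0.63), and 526, 824 and 573 at 120 min (-2.51). RPS3 had 6407, 6799 and 2632 CPM at 15 min against 2186, 2474 and 3082 at 0 min (1.02, not called) and was lower at 120 min (-3.08). These 3 genes were chosen after their values were seen. Across 53 genes the bulk change at 120 min and the single-cell change at 50 to 60 min had r 0.25 and rho 0.30, a description across genes. The copy ratio changed at 120 min in 3 of 17 RPS pairs (14.3% of all 42 pairs), RPS29 (-2.71) and RPS30 (1.40) among them, and RPS26 (0.35), RPS16 (0.59) and RPS7 (-1.85) were not called. The count is near the share of all pairs, which include the RPS pairs. It was 0 without culture 1, 2 without culture 2 and 0 without culture 3.

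**Figure D5:**
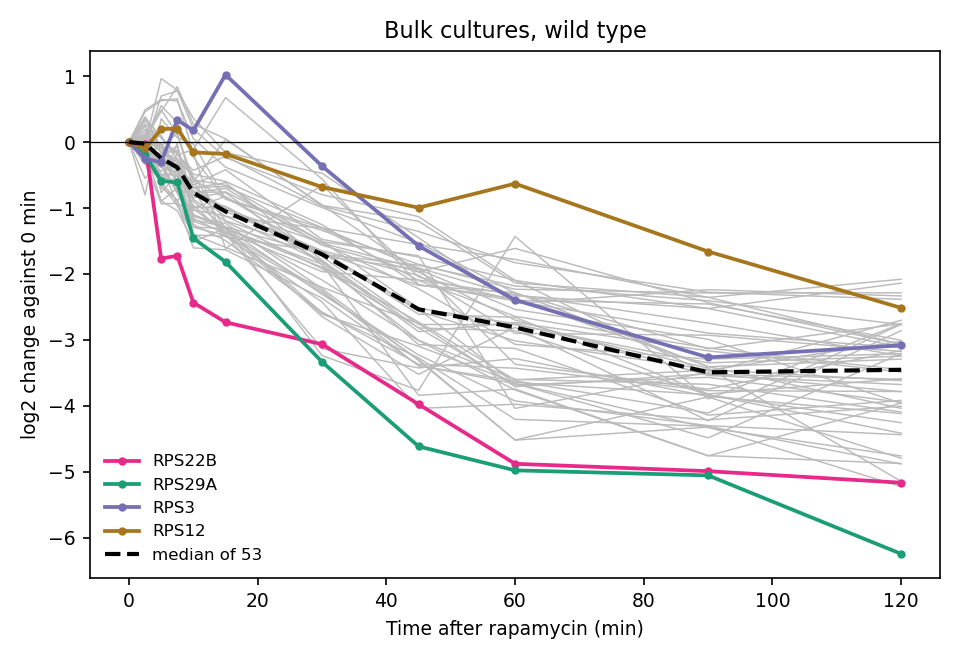
log2 change against 0 min for the 53 tested RPS genes in bulk wild-type cultures (grey lines) by time after rapamycin (min), with RPS22B, RPS29A, RPS3 and RPS12 coloured and the median dashed. RPS22B leads at 5 min (-1.77), and RPS29A ends lowest (-6.25) at 120 min.

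Genes that work with the small subunit were read from lists. At 50 to 60 min 6.42% of all genes were lower and 5.06% higher in deletion cells, and 36% were lower and 41.9% higher in wild-type cells. Of 76 genes for large-subunit proteins (RPL), 46 were lower in deletion cells at 50 to 60 min (median -0.52) and 74 in wild-type cells (median -4.64), beside the RPS medians of -0.54 and -4.62. Of 19 genes for small-subunit maturation, 4 were lower in deletion cells and 18 in wild-type cells, with 1 higher (HRR25, 0.38). In wild-type cells 17 of 19 were already lower at 0 to 10 min (median -0.74), when 2 of 56 RPS genes and 9.5% of all genes were. Of 8 genes for proteins that bind the 40S subunit or 40S-bound factors, 2 were lower in deletion cells and 8 in wild-type cells (median -2.58). LTV1, an assembly factor, changed by 0.00 in deletion cells and by -5.79 in wild-type cells at 50 to 60 min, and TSR2, the chaperone of Rps26, by -0.32 and -4.11. ASC1, which encodes a scaffold protein bound to the 40S head, changed by -0.48 and -4.14. STM1, whose protein binds idle ribosomes, changed by -0.40 and -3.65. Of 17 regulators, 1 was lower and 1 higher in deletion cells, and 8 were lower and 6 higher in wild-type cells, shares near those of all genes. CRF1, a corepressor of these promoters, was higher in wild-type cells (2.26), and RAP1 was lower (-1.40). IFH1 was lower there at 0 to 10 min (-0.85, edgeR quasi-likelihood, BH-adjusted p = 0.00542). In unscaled wild-type UMIs at 50 to 60 min, IFH1 had 288 and 3441, and the listed regulator SFP1 had 129 and 1441. Those sums held 3993298 and 45820153 UMIs in cultures 1 and 2. At -20 to -10 min IFH1 had 3099 and 3811 and SFP1 502 and 700, in sums of 44671442 and 69114350. As unscaled shares neither gene was lower at 50 to 60 min, and CRF1, RAP1 and IFH1 do not stand for the whole list.

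Promoters were searched because the members moved together. In the 500 bases before the start codon, on both strands, the Rap1 word (CACCC, 2 bases of any kind, ACA) occurred in 11 of 56 RPS genes (19.6%) and in 2.20% of 5787 genes. A shorter form, ACCCNNNCA, chosen later and overlapping it, occurred in 46.4 and 13.3%. Other words were no more frequent than in all genes or nearly so: Fhl1 GACGCA in 10.7 and 10.4%, Abf1 (TC, 7 bases of any kind, ACG) in 42.9 and 46.3%, Reb1 TTACCCG in 3.57 and 10.3%, RRPE AAAAATTTT in 5.36 and 9.68%, and PAC GATGAG in 21.4 and 28.0%. The matches of the RPS10 and RPS16 pairs, in which both copies hold one, are shown on the coding strand in 40-base windows (R64), with the Rap1 word in capitals. They lie at chrXV:866743-866782 (plus) for RPS10A, chrXIII:732209-732248 (plus) for RPS10B, chrXIII:551515-551554 and chrXIII:551605-551644 (plus) for RPS16A, and chrIV:308128-308167 (minus) for RPS16B.
RPS10A: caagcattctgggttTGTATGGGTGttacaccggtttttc
RPS10B: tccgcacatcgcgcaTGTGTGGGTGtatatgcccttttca
RPS16A, distal: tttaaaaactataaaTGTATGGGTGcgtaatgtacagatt
RPS16A, proximal: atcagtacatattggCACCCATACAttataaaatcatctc
RPS16B: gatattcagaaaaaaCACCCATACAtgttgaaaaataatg
The median change in wild-type cells at 50 to 60 min was -4.86 over the 11 genes with the word and -4.51 over the 45 without. A match is a description of letters, not of binding.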

How the data were processed

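The authors deposited UMI counts per gene for each cell, with a genotype and a strain code, and counts per gene for each bulk library. Reads were handled with bcl2fastq, kallisto 0.46.1 and bustools 0.39.3 on sacCer3, per the submitters' processing notes. All cells had at least 500 UMIs. UMIs were summed by library and genotype (32 sums) and tested in edgeR 4.0.16 (R 4.3.3; robust quasi-likelihood, TMM, filterByExpr) over 5549 genes with Benjamini-Hochberg adjustment and 16 residual degrees of freedom. Bulk counts were tested likewise over 910 genes. Copy ratios, log2((A + 0.5)/(B + 0.5)), were tested in limma 3.58.1 over pairs whose copies both average at least 10 counts. The scripts were tested on simulated data. The members and lists were chosen with earlier results of these data known. Genes were named if singled out by the description of the set, if called before the drug or single-copy, by the 3 most and 3 least negative changes in wild type, and by the 5 largest ratio changes; some results under this rule are not reported here. The culture number marks 1 flask sampled repeatedly. Same-culture deviations across wild-type intervals of culture 1 correlated at -0.019 to 0.871 and in deletion sums at 0.175 to 0.513. In bulk they correlated at -0.128 to 0.306. Wild-type and deletion deviations from the same library correlated at 0.299 to 0.567. The main fits held no culture or library term and ignored these links. They took each sum or bulk library as a separate replicate, including the untreated intervals of the same flask. The labels do not say whether cultures began from separate colonies. The p-values therefore measure the spread between sums or libraries of these cultures, not between independent cultures. Promoter windows were 500 bases before the start codon, since the planned window table was not used here.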

Additional observations from a re-analysis of the deposited data

Results flagged for a closer look

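All 56 RPS genes responded differently to rapamycin in fpr1 deletion and wild-type cells at 50 to 60 min, by a test of the difference itself. The deletion response minus the wild-type response had a median of 4.16 over the 56 genes on the log2 scale. The genes that were lower in deletion cells before the drug had values of 2.76 for RPS25A, 2.96 for RPS14B, 3.59 for RPS21A, 3.05 for RPS22B and 3.23 for RPS16A. All lay below that median, but these values contain the untreated sums by which the genes were called. Low values were not particular to them. Under the alternatives run, RPS14A had 2.486 to 3.84, RPS25B 2.596 to 3.94 and RPS21B 2.823 to 4.269, none of them called before the drug. RPS22A, also not called then, had 4.886 to 6.272.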

How the results depend on the processing

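The wild-type calls from 20 min on, the differences between genotypes from 20 min on and the copy-ratio calls before the drug kept their counts within 1.5 times under every alternative that was run; the other counts moved as follows, and the cause was not tested. Before rapamycin, 3 genes were called with sums scaled by cells, 9 with each library as a block and 3 with the last untreated interval alone, against 5. In wild type at 0 to 10 min, counts were 0 by library totals, 0 by cells, 7 by DESeq2, 9 with the replicate block, 0 with the last untreated interval alone and 7 with only the groups compared. At 10 to 20 min scaling by cells gave 25. In deletion cells at 20 to 30 min, counts were 0 by library totals, 0 by cells, 31 with the replicate block, 1 with the last untreated interval alone, 11 without the top 5% of cells, 2 with the wild-type RNA share removed and 0 with only the groups compared. At 30 to 40 min they were 0, 0, 2 with the last untreated interval, 2 with wild-type RNA removed and 0 with only the groups compared. Library totals gave 10 and 10, cells 1 and 1, and only the groups compared 3 and 2, at 40 to 50 and 50 to 60 min. The difference between genotypes was called in 1 gene at 0 to 10 min with the replicate block or the library block, and at 10 to 20 min in 29 by library totals and 9 by cells. Bulk counts were 0 at 5 min without a filter or without libraries under 10000 counts, and 0 at 7.5 min without a filter. They were 6 by library totals and 1 without a filter at 10 min, and 13 and 2 at 15 min. Wild-type copy ratios gave 16 calls at 10 to 20 min with the replicate block. Bulk ratios gave 1, 1, 4 and 3 calls at 30, 45, 60 and 90 min with a pseudocount of 5, 4 at 60 min with the replicate block, and 4 at 60 min and 1 at 90 min without shallow libraries. The block changed no other count by over 1.5 times.

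Leaving out each single-cell library gave 3 to 5 genes before rapamycin. In wild type it gave 0 to 6, 50 to 53, 54 to 55 and 54 to 56 in the first 4 intervals and 56 later. In deletion cells it gave 0 to 23, 0 to 28, 18 to 43 and 5 to 41 in the last 4, the lowest without a 20 to 30 min library, the 30 to 40 min library of culture 1, and the culture 2 libraries of 40 to 50 and 50 to 60 min. For the difference between genotypes it gave 42 to 51, 51 to 54, 53 to 56, 54 to 56 and 54 to 56 from 10 min on. Leaving out each bulk culture gave 0 to 1 at 5 min, 0 to 2 at 7.5 min, 1 to 7 at 10 min, 3 to 4 at 15 min, 31 to 36 at 30 min, 37 to 46 at 45 min, 47 to 49 at 60 min and 51 to 53 later. Copy ratios gave 5 before the drug, 8 to 11, 15 to 19, 18 to 20, 19 to 20 and 19 to 20 in wild type from 10 min on, and in bulk 0 to 1 at 45 and 60 min and 0 to 2 at 120 min.

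Scaled by cells, deletion cells at 50 to 60 min had changes of the opposite sign in named genes, 0.088 for RPS13, 0.38 for RPS14A, 0.32 for RPS14B, 0.12 for RPS15, 0.12 for RPS2, 0.49 for RPS21B, 0.034 for RPS22B, 0.30 for RPS25A, 0.13 for RPS25B and 0.23 for RPS31. With 1 of the 50 to 60 min libraries left out, RPS21B stood at -0.81 (culture 1 out) and 0.10 (culture 2 out). The median of all genes was then 0.69 by cells, 0.22 by library totals and 0.05 by TMM, and in wild type 0.13, 0.94 and 0.11. Of all calls at 50 to 60 min, 44.1% were higher in deletion cells by TMM, 90.1% by library totals and 99.9% by cells, and in wild type 53.7, 79.1 and 55.9%. Bulk libraries held 3800 to 111293 counts, which kept 3 of the 56 genes out of the test.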
